A study of Rattus norvegicus with 4 samples.

Results

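The genes described here are 9 Fc receptors and immune signalling adaptors of the rat, namely Fcgr1a, Fcgr2a, Fcgr2b, Fcgr3a, Fcer1g, Tyrobp, Trem2, Syk and Fyb (now named Fyb1). They were taken by the gene name printed in the array files, which gave 11 of the 41012 gene probes. The choice was made with the difference between the groups already known, so levels and differences of these genes are a description and carry no test. Gene expression was measured in primary cortical neurons of Sprague Dawley embryos of both sexes at embryonic stage E18.5, on single-colour Agilent arrays. Cultures received a lentivirus on day 2 in vitro, carrying either an shRNA against Cmtr1 (shCM1, 2 arrays) or a control shRNA (shCTL, 2 arrays), and total RNA was taken with TRIzol on day 7. Both groups therefore carried a lentivirus and an shRNA, and the series describes 2 independent experiments. The sample titles write si where the shRNA field writes sh. The shRNA sequences are not given in the sources used here, so an effect of lower CMTR1 and an off-target effect cannot be told apart.

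Fc receptors bind the constant part of antibodies and are carried mostly by immune cells, which in brain tissue means chiefly microglia and border macrophages. The activating receptors have little signalling tail of their own. They pair with the gamma chain Fcer1g, while receptors such as Trem2 pair with Tyrobp (DAP12). Both adaptors hold an ITAM, a tyrosine motif that Src-family kinases phosphorylate and that then recruits the kinase Syk. Inhibitory receptors such as Fcgr2b carry an ITIM instead and recruit phosphatases.

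On the arrays each gene is read by probes of 60 bases. Rat Fc gamma receptors resemble each other in sequence, so the probe letters bear on whether one receptor's transcript could light another's spot. The lines below show the receptor probes of Fcgr1a, Fcgr2a and Fcgr3a, and the probe of LOC498276, which RefSeq names Fcgr2al1, a neighbouring Fcgr2a-like gene. All are written 5′ to 3′ in the files' rn4 coordinates.
Fcgr1a at chr2:191099039-191099098: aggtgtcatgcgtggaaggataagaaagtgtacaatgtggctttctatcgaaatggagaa
Fcgr2a at chr13:86905963-86906022: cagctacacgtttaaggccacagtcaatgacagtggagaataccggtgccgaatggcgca
Fcgr3a at chr13:86877181-86877240: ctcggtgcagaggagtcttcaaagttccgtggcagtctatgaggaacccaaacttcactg
LOC498276 at chr13:86921308-86923192: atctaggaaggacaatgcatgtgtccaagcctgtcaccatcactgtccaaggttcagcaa
The last span is longer than the probe. Among the 7 probes of the Fc gamma receptors and LOC498276, the longest run of bases shared by any of the 21 pairs, on either strand, was 9. That compares probe with probe. A transcript of one receptor can still hold a stretch close to another receptor's probe, and the annotation of the Fcgr2a probe also lists an Fcgr2al1 transcript. RefSeq further gives Fcgr3, fc-gamma RIII and even Fcgr3a as other names of Fcgr2a. It gives Fcgr4 and CD16-2 as other names of the gene Fcgr3a. The receptor names are therefore uncertain. Exon and UTR positions of the probes were not analysed here.

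Every one of the 11 probes was well above background on all 4 arrays. A level is the log2 of a probe's signal divided by the 75th percentile of its array, so a level of 0 is as bright as that percentile, and levels of different probes are not compared. Differences are shCM1 minus shCTL on the log2 scale, with the standard error (SE) of the limma fit without a block and 2 arrays in each group. Replicate 1 of both groups lay on slide 1 and replicate 2 of both on slide 2, each slide with its own scan. The targeted gene, Cmtr1, had levels of -3.46 and -3.53 in shCM1, against -1.43 and -1.86 in shCTL. Its difference was -1.85 (SE 0.22), which is 0.277 times the shCTL level.

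Taken by the brightest probe of each gene, 8 of the 9 genes had a higher mean in shCM1 and Syk had a lower one. The differences ran from -0.48 to 1.70, with a median of 1.01. The median of all 36701 probes kept was 0.08, and that of the 16463 probes as bright as these genes was 0.15. The groups did not overlap, with shCM1 above, for 8 of the 11 probes, as for 21.8% of all probes. Both slides showed a higher level in shCM1 for 9 of the 11 probes, as for 44.2% of all. In 5 of the 11 the difference was at least 1.5-fold upward on both slides, as for 1.67% of all. Because the genes were chosen on this contrast, nothing is read from these shares.

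**Figure D1:**
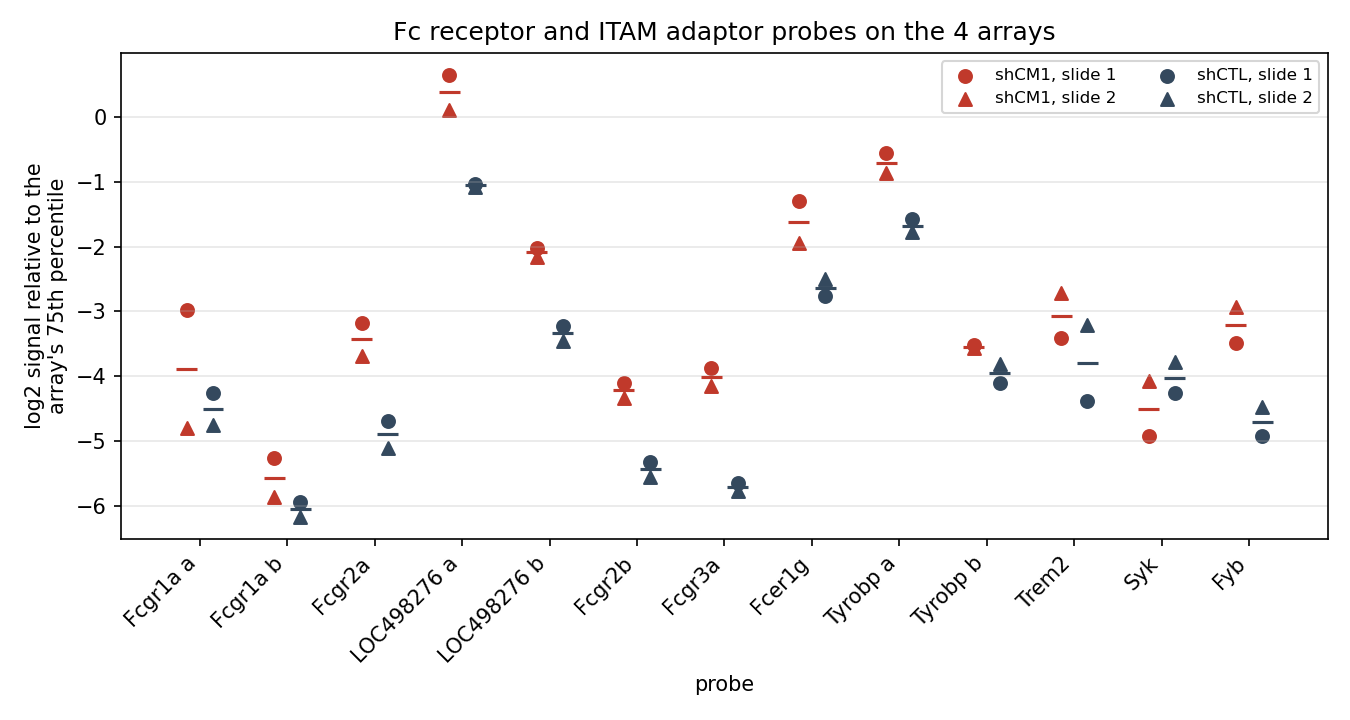
Level of each probe on the 4 arrays (vertical axis, log2 of signal over the 75th percentile of that array), with red for shCM1, dark blue for shCTL, circles for slide 1, triangles for slide 2 and bars for group means. LOC498276 is drawn beside Fcgr2a, and the red symbols of Fcgr2a, Fcgr2b, Fcgr3a and Fyb stand clear of the blue ones, while those of Syk, Trem2 and the first Fcgr1a probe overlap them.

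Among the receptors that bind IgG, Fcgr3a had the widest difference of the 9 genes. This activating receptor pairs with Fcer1g. Its levels were -3.88 and -4.15 in shCM1, against -5.65 and -5.77 in shCTL. Both shCM1 arrays lay above both shCTL arrays, with little spread inside either group. The difference was 1.77 on slide 1 and 1.62 on slide 2, with a mean of 1.70 (SE 0.28), or 3.24-fold. The spot was dim, with mean raw intensities of 82.2 and 65.9 in shCM1 against 56.7 and 40.2 in shCTL. The local backgrounds were 23 and 20 in shCM1, against 24 and 19 in shCTL. Raw intensities therefore lay less than 3.24-fold apart, and with the normexp background correction, which adds an offset of 50, the difference was 0.50.

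Fcgr2a, an activating receptor that RefSeq also calls Fcgr3, had levels of -3.17 and -3.68 in shCM1, against -4.68 and -5.11 in shCTL. The groups did not overlap, and slide 2 was the dimmer slide in both. The differences were 1.51 and 1.43 on slides 1 and 2, with a mean of 1.47 (SE 0.30), or 2.76-fold. Its neighbour LOC498276 was read by a pair of probes. The first had levels of 0.64 and 0.10 in shCM1, against -1.04 and -1.08 in shCTL, at signals of 930 and 800 against 318 and 358. The second, whose sequence is shown above, had levels of -2.02 and -2.16 in shCM1, against -3.22 and -3.45 in shCTL. Neither probe's groups overlapped, and the differences were 1.43 (SE 0.23) and 1.25 (SE 0.20). Whether transcripts of LOC498276 contribute to the Fcgr2a spot was not tested.

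Fcgr2b, the inhibitory receptor with an ITIM, had levels of -4.10 and -4.33 in shCM1, against -5.32 and -5.55 in shCTL. Its difference was 1.22 on each slide (SE 0.28), or 2.33-fold, and the groups did not overlap. The activating receptors Fcgr2a and Fcgr3a and the inhibitory Fcgr2b thus each had both shCM1 arrays above both shCTL arrays. Fcgr2b, Fcgr3a, Fcgr2a, LOC498276 and Fcer1g have their probes in that order along chromosome 13 of rn4.

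Fcgr1a, the high-affinity receptor, lies on chromosome 2, and its probes were less steady. The first had levels of -2.97 and -4.80 in shCM1, against -4.25 and -4.76 in shCTL. Only shCM1 replicate 1 stood high, and the groups overlapped. The difference was 1.28 on slide 1 and -0.04 on slide 2, with a mean of 0.62 (SE 0.62). Without shCM1 replicate 1 it was -0.29. Leaving out 1 array unbalances the slides, so here and for all genes below, differences between slides enter such values. The second probe, shown above, had levels of -5.26 and -5.86 in shCM1, against -5.94 and -6.16 in shCTL. These did not overlap, and the differences were 0.68 and 0.30 on slides 1 and 2, with a mean of 0.49 (SE 0.40). It was 0.19 without shCM1 replicate 1 and 0.79 without shCM1 replicate 2, 0.22 under quantile normalization and in the authors' table, 0.25 under cyclic loess and 0.11 under normexp. Both SEs were close in size to the means they belong to.

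Of the adaptors, Tyrobp had levels of -0.56 and -0.87 in shCM1, against -1.58 and -1.78 in shCTL. The groups were apart, and the slides gave 1.02 and 0.91, with a mean of 0.97 (SE 0.20), or 1.95-fold. A second Tyrobp probe, designed on an expressed sequence tag whose rn4 coordinates run in the opposite sense, had levels of -3.52 and -3.57 in shCM1, against -4.10 and -3.80 in shCTL. Its groups were also apart, by a narrower difference of 0.41 (SE 0.23), with 0.59 on slide 1 and 0.23 on slide 2. It was 0.26 without shCTL replicate 1, 0.22 to 0.24 under quantile normalization, cyclic loess and the authors' table, and 0.17 under normexp. The probes under this gene's name thus agreed in sign and not in size. Where the gene's strand was at hand, probe coordinates rose on the plus strand (Fcgr3a, Fyb1) and fell on the minus strand (Fcgr2a, Syk, Trem2). Those of the first Tyrobp probe rose and those of the second fell, so the second is written on the opposite strand to the first. It is counted with the other probes by its name only, and which transcript it reads was not tested.

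Fcer1g, the gamma chain that the activating receptors need at the cell surface, had levels of -1.31 and -1.94 in shCM1, against -2.77 and -2.50 in shCTL. The groups did not overlap. The slides differed in size, at 1.46 and 0.56, with a mean of 1.01 (SE 0.27), or 2.02-fold. Trem2, a lipid-sensing receptor of microglia that signals through Tyrobp, had levels of -3.41 and -2.72 in shCM1, against -4.37 and -3.21 in shCTL. Here shCM1 replicate 1 lay below shCTL replicate 2, so the groups overlapped although shCM1 was above shCTL on each slide, by 0.97 and 0.48. The mean difference was 0.73 (SE 0.46). It was 0.14 without shCTL replicate 1, 0.38 without shCM1 replicate 2 and 1.31 without shCTL replicate 2, and 0.37 under normexp. The left-out values take in the difference between slides, which was 0.92 for Trem2.

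Downstream of the ITAM, Fyb and Syk lay on opposite sides of 0. Fyb, an adaptor known from T cells and myeloid cells that links receptor signalling to integrins, had levels of -3.49 and -2.93 in shCM1, against -4.92 and -4.48 in shCTL. Both shCM1 arrays were above both shCTL arrays, by 1.42 and 1.54 on the slides, with a mean of 1.48 (SE 0.31), or 2.80-fold. Syk, the kinase that the phosphorylated ITAM recruits, had levels of -4.92 and -4.08 in shCM1, against -4.26 and -3.78 in shCTL. The groups overlapped, and shCM1 was lower on both slides, with differences of -0.66 and -0.30. The mean was -0.48 (SE 0.37), and leaving out 1 array at a time gave -0.90 to -0.06, the last without shCM1 replicate 1. Those left-out values take in the difference between slides, which was 0.66 for Syk.

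**Figure D2:**
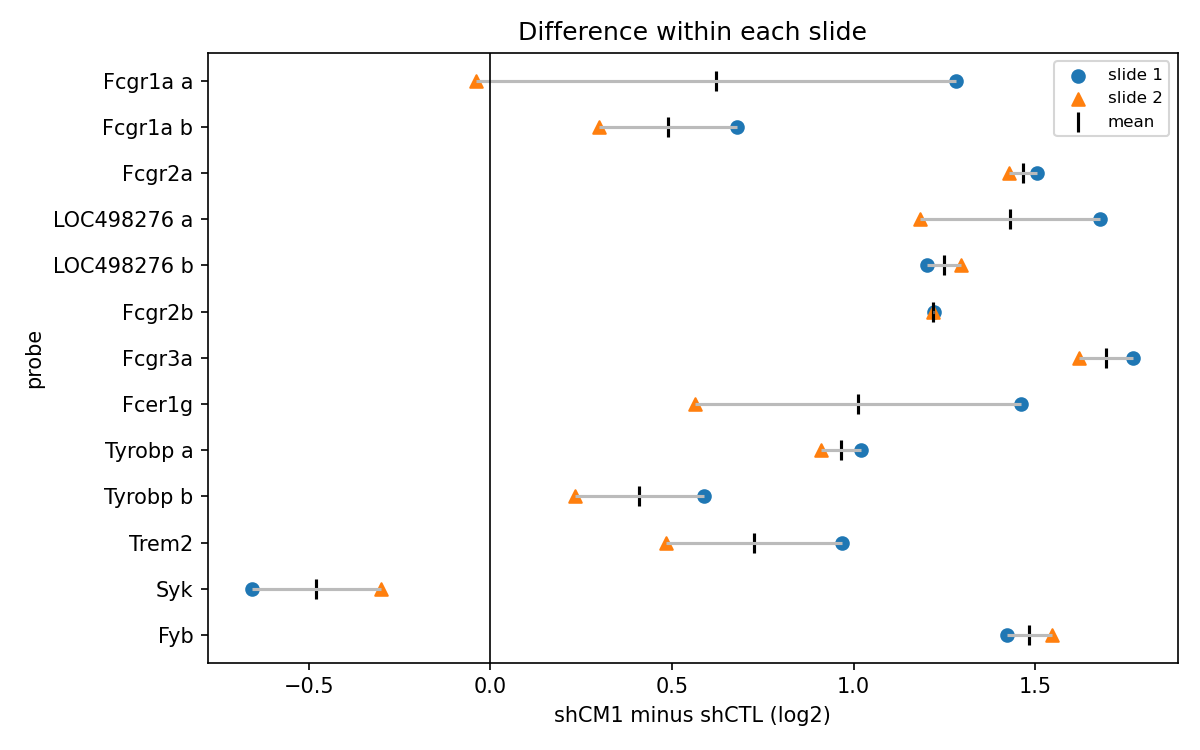
Difference of shCM1 minus shCTL (horizontal axis, log2) for each probe on slide 1 (circles) and slide 2 (triangles), with a tick at the mean. Fcgr2b gave 1.22 on each slide, the first Fcgr1a probe ran between -0.04 and 1.28, and only Syk lay below 0 on both.

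Without a block, limma called 0 of the 36701 probes at an adjusted p under 0.05. An unadjusted p under 0.05 was reached by 1110, fewer than that threshold gives on average where nothing differs. A fit that blocked on slide called 2164, which was 5.9% of probes. Of these, 1176 were higher (3.2%) and 988 lower (2.69%) in shCM1. The probes of Fcgr2a, Fcgr2b, Fcgr3a, Fcer1g and Fyb, and the brighter probe of Tyrobp, were among those higher in the blocked fit, and Trem2 made 7 of 11. No probe of the 9 genes was among those lower. The rule used this contrast, so these calls add nothing to the choice. With 2 arrays against 2, an exact two-sided permutation test of a single probe cannot go below 0.333.

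The way the arrays were put on 1 scale changed sizes and no sign in the brightest probe of each gene. Under quantile normalization, cyclic loess and the authors' deposited table the median difference of the 9 genes was 0.91 each time. The median of all probes was 0.01 under each of these, against 0.08 with the 75th percentile. With normexp the median of the 9 genes was 0.50, and that of all probes 0.06. In all 5 scalings 8 of the 9 genes were positive and Syk was negative. Within slides, with the 75th percentile, the median of the 9 was 1.28 on slide 1 and 0.91 on slide 2.

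**Figure D3:**
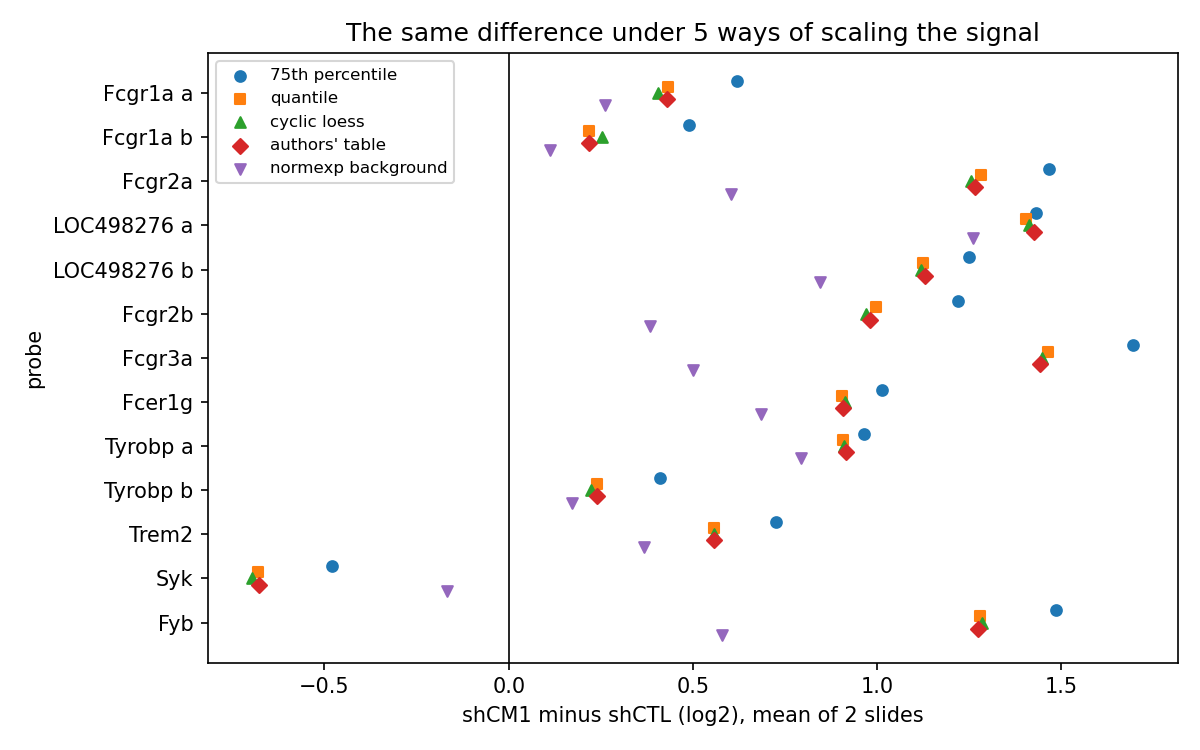
Mean difference of shCM1 minus shCTL (horizontal axis, log2) for each probe under 5 scalings, 1 symbol each. The normexp symbols lie nearest to 0, and for Fcgr3a they mark 0.50 against 1.70 with the 75th percentile.

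How much of a difference was left under normexp varied with the brightness of the spot. LOC498276, whose first probe was far above its local background on every array, kept 1.26 of its 1.43 under normexp. Fcgr2b, a dim probe, had 0.38 of 1.22, Fcgr2a 0.60 of 1.47 and Fyb 0.58 of 1.48. Tyrobp's brighter probe had 0.79 of 0.97 and Fcer1g 0.68 of 1.01. The sizes given for Fcgr2b, Fcgr3a, Fcgr2a and Fyb thus moved more under this offset than those of Tyrobp and Fcer1g. Because the offset fixes that order, it does not show which size is nearer the true one.

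**Figure D4:**
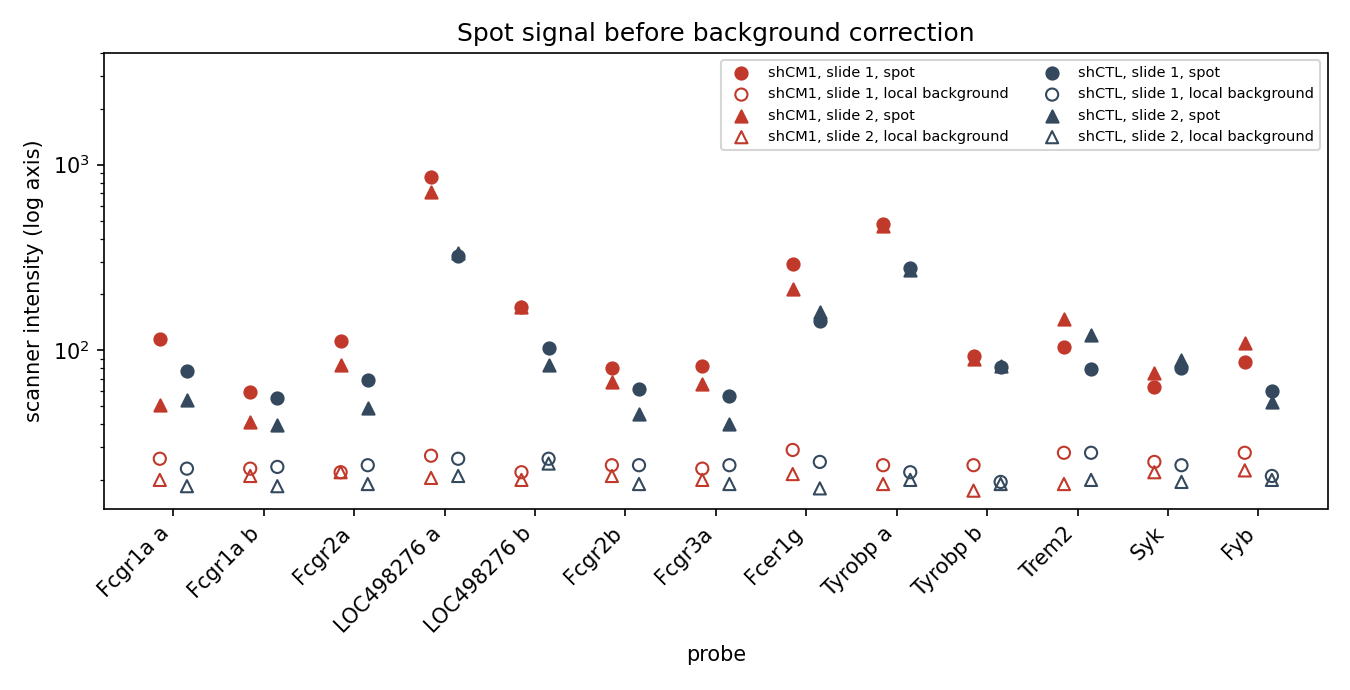
Raw spot intensity (filled) and local background (open) of each probe on the 4 arrays (vertical axis, log scale), with red for shCM1 and dark blue for shCTL, circles for slide 1 and triangles for slide 2. Most receptor spots lie near the background, for example Fcgr3a at 82.2 and 65.9 in shCM1 against 56.7 and 40.2 in shCTL, while the brighter Tyrobp probe, Fcer1g and the first LOC498276 probe stand well above it.

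The slides offer a contrast that the choice of genes did not use. In limma with group in the model, 4 of the 11 probes differed between slide 2 and slide 1, where 32.1% of all probes did, and 3 of them were higher on slide 2, as were 15.6% of all. Trem2 was higher on slide 2, at -2.72 and -3.21 in shCM1 and shCTL, than on slide 1, at -3.41 and -4.37 (difference 0.92, adjusted p = 0.000708 in limma). Syk was also higher on slide 2 (0.66, adjusted p = 0.0199 in limma), and so was Fyb (0.50, adjusted p = 0.0459 in limma). The first Fcgr1a probe was lower on slide 2 (-1.16, adjusted p = 0.00268 in limma). On this scale Trem2 and Syk varied between slides by at least as much as between the groups. For Fcgr2b and Fcgr3a the slide difference was -0.23 and -0.20 and did not pass (adjusted p = 0.485 and 0.554 in limma). Under normexp both passed as lower on slide 2 (-0.27 and -0.30, adjusted p = 0.0238 and 0.0150 in limma). None of the 11 passed when group was dropped from the model or when the variance prior had no intensity trend. The Fyb call was lost under quantile normalization (adjusted p = 0.0685 in limma), cyclic loess (0.0730) and normexp, where its slide difference was 0.00 (0.979), with 1 probe per gene (0.0501) and with no filter on dim probes (0.0883). The Syk call was lost under normexp (difference 0.08, adjusted p = 0.465 in limma) and with no filter on dim probes (0.0547). Fcgr2a passed under quantile normalization (adjusted p = 0.0460 in limma) and normexp (0.00483), and the second Fcgr1a probe under normexp (0.00891), all lower on slide 2. Only the Trem2 call and that of the first Fcgr1a probe held under all 4 other scalings and all filters tried.

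The other genes of the pathway were taken from lists, with each gene read by its brightest probe. Of 37 measured genes of ITAM signalling, with a median difference of 0.06, the fit without a block called none, and the blocked fit called 1 higher and 1 lower. These 2 of 37 are a share close to the 5.9% of all probes that the blocked fit called. Pik3r1, the regulatory subunit of PI3-kinase, was at 3.58 and 3.30 in shCM1, against 4.15 and 3.72 in shCTL. In the blocked fit it fell by 0.49 (adjusted p = 0.00252 in limma with the slide block). Its other probes gave -0.35 and -0.26. Without shCTL replicate 1 the difference of the brightest probe was -0.28. Rac2, a small GTPase of blood cells, was at -4.32 and -4.10 in shCM1, against -5.99 and -4.57 in shCTL. Its 1.07 passed with the block (adjusted p = 0.0311 in limma), and not with the block under quantile, cyclic loess, normexp or the authors' values (adjusted p = 0.106 to 0.164). It was 0.35 without shCTL replicate 1 and 1.78 without shCTL replicate 2. On both slides 15 of the 37 were higher (40.5%, against 44.2% of all probes) and 9 lower. The Src-family kinase Fgr had a difference of 0.30 that did not pass the test.

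Of 19 inhibitory genes, among them ITIM receptors, phosphatases and adaptors, the median was 0.43. On both slides 11 were higher (57.9%, against 44.2% of all probes) and 0 lower. The unblocked fit called none, and the blocked fit called 1, a share close to the 5.9% of all probes. Pilra, an inhibitory receptor of myeloid cells, was at -1.002 and -2.30 in shCM1, against -2.39 and -2.93 in shCTL. It rose by 1.01 in the blocked fit (adjusted p = 0.00127 in limma), and was 0.36 without shCM1 replicate 1 and 1.66 without shCM1 replicate 2. The list median was 0.23 under quantile normalization and 0.10 under normexp. Ptpn6, the phosphatase SHP-1 that ITIMs recruit, had the next smallest p, with a difference of 0.45 that missed the threshold (adjusted p = 0.0508 in limma with the block).

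Of 10 other ITAM-coupled receptors none passed either fit, and the median was 0.15 (0.00 under quantile normalization). The smallest p belonged to Itgb2, a leukocyte integrin chain, at 0.67, and Treml1 at 0.42 (adjusted p = 0.160 each in limma with the block). Of 7 other Fc receptors, with a median of 0.17, the blocked fit called 2, against 5.9% of all probes. It called Fcgr2al1 higher by the first LOC498276 probe described above (adjusted p = 6.16e-06 in limma). That gene was already in earlier results of these arrays, so the call is not independent. Fcgrt, the neonatal Fc receptor that recycles IgG, was at -0.79 and -0.70 in shCM1, against -0.44 and 0.04 in shCTL. It fell by 0.55 in the blocked fit (adjusted p = 0.0129 in limma), and the difference was -0.31 without shCTL replicate 2. The blocked calls on every list became 0 with a variance prior that had no intensity trend, with adjusted p of about 0.24 to 0.26 for these genes.

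**Figure D5:**
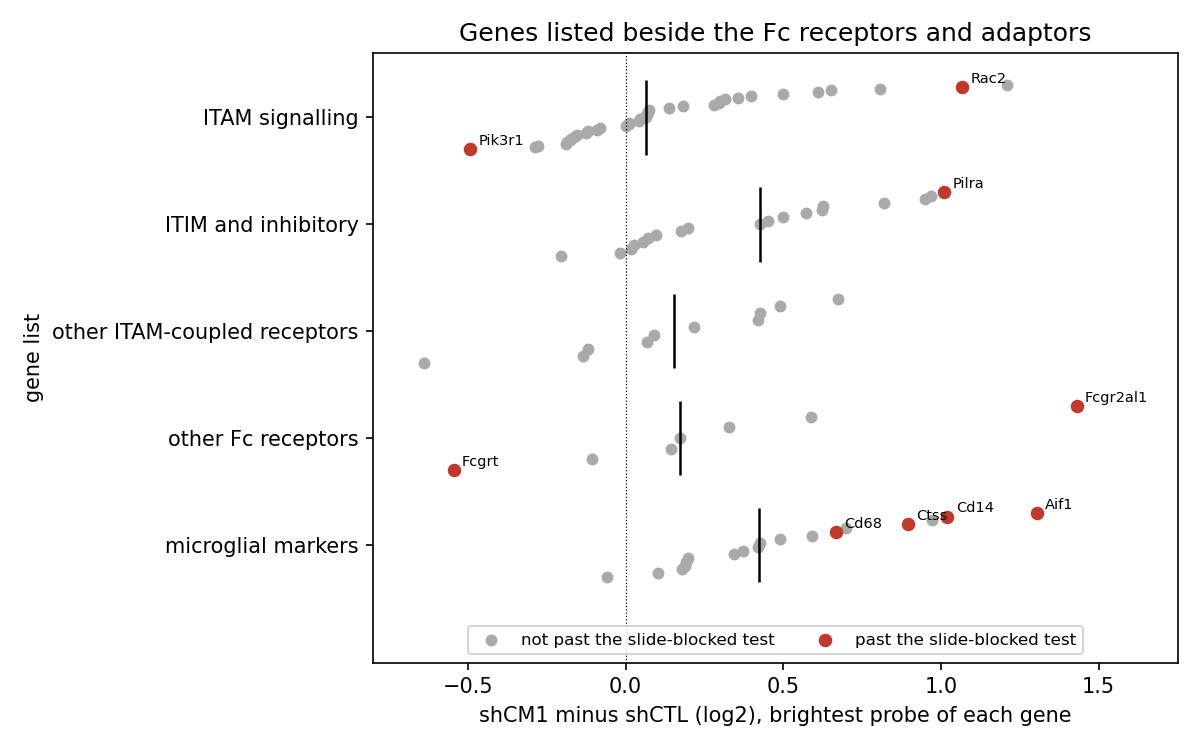
Difference of shCM1 minus shCTL (horizontal axis, log2) for each gene of 4 pathway lists and the microglial markers, by its brightest probe, with a black bar at each list's median. Red points passed limma with the slide block, which for the ITAM signalling list were Rac2 above 0 and Pik3r1 below it.

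Because Fc receptors mark immune cells, the marker lists of the cells a cortical culture could hold are set beside them. Microglial markers had a median of 0.42 over 18 measured genes. On both slides 17 were higher (94.4%, against 44.2% of all probes) and 0 lower. Their summed linear level was 17.9 and 16.5 in shCM1, against 14.9 and 14.7 in shCTL. Itgam and P2ry13 were not well above background, while among the brightest Hexa differed by 0.10, Laptm5 by 0.19 and C1qb by -0.06. The blocked fit called 4 of the 18, against 5.9% of all probes, and the list was chosen with earlier results of these data known. The called genes were Aif1 (1.30), Cd14 (1.02), Ctss (0.89) and Cd68 (0.67), which are named because they passed and not by the rule. Aif1 was 0.81 and Ctss 0.54 without shCM1 replicate 1, and Cd68 0.36 without shCTL replicate 1. A dimmer Cd14 probe gave 0.71 and did not pass (adjusted p = 0.200 in limma with the block). A dimmer Ctss probe gave 2.30 (adjusted p = 0.000544 in limma with the block). The list median was 0.30 under quantile normalization and 0.21 under normexp. Fewer or more cells of a type and less or more RNA per cell cannot be told apart in bulk RNA, and the part of immune cells in the differences of the Fc receptors was not tested.

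Border macrophage markers had a median of 0.49 over 7 genes, and of 0.36 under quantile normalization and 0.17 under normexp. On both slides 6 of the 7 were higher (85.7%, against 44.2% of all probes). The summed level of these markers was 0.677 and 0.631 in shCM1, against 0.364 and 0.381 in shCTL. Neutrophil (8 genes, 0.21), mast cell and basophil (6, 0.19), T and NK cell (7, 0.31) and B cell (4, 0.28) markers had medians above 0 with the 75th percentile and none past the blocked fit. Under quantile normalization those medians were -0.02, 0.04, 0.05 and 0.03. Fcer1a and Ms4a2 for mast cells, Cd3e and Cd4 for T cells and Ms4a1 for B cells were not well above background. Neuronal markers had a median of -0.02, and all 12 were well above background on every array. Their sum was 289 and 221 in shCM1, against 303 and 236 in shCTL. Astrocyte (8, -0.04), oligodendrocyte lineage (9, 0.11) and endothelial (9, 0.16) markers had medians near the median of all probes. All 8 astrocyte and all 9 oligodendrocyte lineage markers were also well above background on every array. Detection of the neuronal markers therefore does not set neurons apart from glia, and the purity of the cultures was not tested. In the blocked fit, Lyz2 of the border macrophage list was higher (1.45), as were Gad1 (0.52) and Gad2 (0.53) of the neuronal list, Mbp (0.52) of the oligodendrocyte list and Pdgfrb (0.62) of the endothelial list. Tubb3 (-0.37) and Cspg4 (-0.35) were lower in this fit, which called 5.9% of all probes. Leaving out each array in turn, an alternative added after the data were seen, moved several of these values. It also leaves the slides unbalanced, so differences between slides enter those values. On slides 1 and 2 the differences were 0.57 and 0.46 for Gad1, and 0.66 and 0.40 for Gad2. For Tubb3 they were -0.26 and -0.47, for Cspg4 -0.37 and -0.32, and for Pdgfrb 0.99 and 0.25. Those of Lyz2 were 1.24 and 1.65, and those of Mbp 0.57 and 0.48. Pdgfrb was -0.10 without shCTL replicate 1, 0.27 without shCM1 replicate 2, 0.97 without shCM1 replicate 1 and 1.34 without shCTL replicate 2. Gad1 was 0.12 without shCM1 replicate 1, 0.17 without shCTL replicate 2, 0.87 without shCTL replicate 1 and 0.92 without shCM1 replicate 2. Gad2 was 0.26 without shCM1 replicate 1 and 0.79 without shCM1 replicate 2. Tubb3 was -0.11 without shCM1 replicate 2, -0.22 without shCTL replicate 1 and -0.62 without shCM1 replicate 1. Cspg4 was -0.20 without shCM1 replicate 1 and -0.23 without shCTL replicate 2. Lyz2 ran from 1.22 to 1.67 and Mbp from 0.49 to 0.55.

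The pattern of the 9 genes over the 4 arrays, averaged after centring each gene, was 0.58 and 0.39 in shCM1, against -0.53 and -0.44 in shCTL. Tyrobp lay nearest to it, at a distance of 0.227, and Syk farthest, at 1.64. Of 14256 other genes, the nearest were Golt1a (0.0797), the olfactory receptor Or52b1 (0.0874), Cd14 (0.128), Aass (0.130) and Slc26a3 (0.133). Over 4 arrays in 2 groups, such a ranking rests largely on the size of the group difference.

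RefSeq promoters, the 250 bases before a start in GRCr8, were at hand for 5 of the genes. They were searched on both strands for GAGGAA, the core of many sites for ETS factors such as PU.1, and for the longer GAGGAAGT, which contains it. The motifs were chosen after the sequences were seen. The shorter one lay in 5 of 6 promoters, counting the pair of starts of Fcgr2a, against 23.34% of 33469 promoters. The longer one lay in that of Fcgr3a alone among these, against 2.041% of all. Shown are Fcgr3a, with the widest difference, Fyb1, next to it, and Syk, which was lower, with matches on either strand in capitals.
Fcgr3a at chr13:85782386-85782635, plus strand: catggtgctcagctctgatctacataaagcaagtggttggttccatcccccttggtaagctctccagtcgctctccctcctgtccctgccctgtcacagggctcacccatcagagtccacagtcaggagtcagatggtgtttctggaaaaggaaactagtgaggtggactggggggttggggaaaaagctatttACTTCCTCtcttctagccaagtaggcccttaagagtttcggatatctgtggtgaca
Fyb1 at chr2:57416226-57416475, plus strand: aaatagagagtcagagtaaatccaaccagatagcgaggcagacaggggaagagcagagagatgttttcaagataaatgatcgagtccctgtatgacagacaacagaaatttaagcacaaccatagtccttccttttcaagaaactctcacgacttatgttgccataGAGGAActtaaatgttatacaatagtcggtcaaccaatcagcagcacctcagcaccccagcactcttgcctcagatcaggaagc
Syk at chr17:12813274-12813523, minus strand: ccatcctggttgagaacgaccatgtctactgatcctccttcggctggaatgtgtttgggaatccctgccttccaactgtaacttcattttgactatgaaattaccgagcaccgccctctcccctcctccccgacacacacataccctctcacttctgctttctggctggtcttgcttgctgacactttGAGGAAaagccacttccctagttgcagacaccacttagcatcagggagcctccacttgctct
The match began at -56 from the start in Fcgr3a, -84 in Fyb1 and -62 in Syk. Syk thus held the short motif although its difference ran the other way. A match of letters describes the window and shows no binding.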

How the data were processed

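Gene expression in 4 cultures was read on 1-colour Agilent arrays. The deposited scanner files hold spot intensity on a linear scale and name Feature Extraction 10.7.3.1 in their headers. The processed signal, which the software had corrected for background, was used. A value table that the authors deposited for the series holds intensity too and served as an alternative. How it was made is not given in the sources used.

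Control spots and outlier-marked spots were left out, replicate spots were averaged per probe, and signals were divided by the 75th percentile of the array (596.3 and 743.7 in shCM1, 652.2 and 754.5 in shCTL) before taking log2. Arrays had 84.0% to 90.4% of probes well above background, and the 36701 probes that were so on at least 2 arrays were kept. The number of arrays limits the precision. Probes were named from RefSeq (GRCr8), 18971 by accession, 2995 by symbol and 203 by synonym, and 18843 kept the file's name.

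Probes were tested with limma 3.58.1 in R 4.3.3 (intensity trend, two-sided, Benjamini-Hochberg over all probes, threshold 0.05), once without a block and once blocking on slide. Slide, scan and replicate number are 1 split per the file headers. Same-numbered arrays deviated together from their group means (correlation 0.713 over probes), and the differences on the slides correlated at 0.367. With 14.8 prior degrees of freedom in the blocked fit, its p leans on the spread of probes of similar brightness. Where nothing ties a slide to an experiment, p measures the spread between these samples, which may be technical. On simulated data for shCM1 minus shCTL over 36696 probes, the blocked fit recovered 84 of 100 probes changed by 1 on the log2 scale, with 22 false calls, and the fit without a block 0. Those data were drawn from the blocked model, with its own slide effects and variances. The simulation therefore cannot tell which fit suits the real arrays.

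Alternatives were quantile and cyclic loess scaling, normexp (offset 50), the authors' table, other filters on dim probes, no trend, 1 probe per gene and each array left out. The members and all lists were chosen with earlier results of these data known. Genes named are all members, Cmtr1, per pathway list up to 4 past the blocked fit in each direction or else the 2 with the smallest p, per marker list the 4 brightest at most, and the 5 genes nearest to the members' mean pattern by Euclidean distance. Ptpn6, Fgr, the called markers and markers below background were named after their values were seen. Some genes that these rules name are not reported here.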

Additional observations from a re-analysis of the deposited data

How the results depend on the processing

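Without a block, 0 probes and 0 genes of the 4 pathway lists were called under every scaling, filter and left-out array tried. With the replicate block (slide), 2164 probes were called, against 1353 with quantile, 972 with cyclic loess, 1422 with normexp and 1103 with the authors' table, and 0 without the intensity trend. The block combined with another scaling or with no trend was added after the data were seen. It called 2 ITAM signalling genes, and 1 under each of those 4 scalings. It called 1 of 19 inhibitory ITIM genes and 2 of 7 other Fc receptors, and 1 and 2 again under each. The share of all probes called with the block was 5.9%, and Fcgr2al1 was already known from these arrays. Other ITAM-coupled receptors stayed at 0 throughout. The median difference of the 9 genes was 1.01, 0.50 with normexp and 1.07 to 1.33 with 1 array left out, the highest without shCM1 replicate 2. The first Fcgr1a probe reversed to -0.29 without shCM1 replicate 1, and with other arrays left out it ranged up to 1.53. With 1 array left out the slides are unbalanced, so differences between slides enter these values. Between slides 4 of 11 probes were called, 6 with normexp, 3 with cyclic loess, 3 with 1 probe per gene, 2 with no filter on dim probes, 0 with group left out and 0 without the trend. Beyond the construction of each alternative, the cause of these changes was not tested. Dim spots limit the sizes given for the receptors.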
